A study of Mus musculus with 30 samples.

Results

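Nucleolar ribosome biogenesis genes are described here, 34 genes whose products transcribe, modify, cleave and assemble ribosomal RNA in the nucleolus, out of 18193 genes measured in a retinoic acid time course of mouse embryonic stem cells. Members were chosen by symbol, and all 34 were measured. Each was read from 1 probe set that carries only that symbol, chosen for having the highest mean across the 30 arrays. KH2 cells, an embryonic stem cell line built for inducible transgenes, were grown on feeder fibroblasts, and RNA of each sample was hybridised to 1 Affymetrix mouse array. The labels call the arrays at 8 h baseline and those at 12, 16, 24, 36, 48, 60 and 72 h retinoic acid, a vitamin A derivative that drives these cells to differentiate, at 0.3 uM. Whether retinoic acid was present at 8 h is not stated, and no transgene or inducer is named. Each time had 3 arrays, except 12 h and 24 h, which had 6 each, lettered A to F. Values are log2 intensities, so differences are on the log2 scale.

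A ribosome begins with transcription of its long precursor RNA by RNA polymerase I. Box C/D and box H/ACA ribonucleoproteins then guide methylation and pseudouridine formation in that RNA, while large assemblies cut it and fold it into the precursors of the small and the large subunit. Many of these factors are abundant in embryonic stem cells, which divide fast, and the Myc transcription factors are known to bind at many of their genes through the E-box CACGTG.

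The arrays fell into 2 sets by the difference between the bacterial spike-ins BioDn and BioC, which lay between 1.34 and 1.63 in array set 2 (12 h D-F, 24 h D-F and 36 to 72 h) and between 0.99 and 1.07 in array set 1 (8 h, 12 h A-C, 16 h and 24 h A-C). The ribosomal RNA control probe set nearest the start of that RNA also differed, with 7.99 to 9.17 in set 2 and 9.03 to 11.12 in set 1. For this reason 12 h and 24 h were each kept as 2 groups, and the main comparisons, 24 h A-C against 8 h and 72 h against 12 h D-F, lie within a set. Stem cell markers were present at all times, with a mean log2 level of 10.78 at 72 h and 12.12 at 8 h over 16 genes. Markers of fibroblasts, the cells of the feeder layer, had a mean of 10.85 at 72 h and 8.33 at 8 h over 29 genes. In these bulk samples, fewer cells of a type and less RNA per cell cannot be told apart. The labels do not say whether arrays of a group came from separate cultures, so p-values measure the spread between these samples.

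The E-box CACGTG, which reads the same on both strands, was searched in the RefSeq promoter windows of mouse GRCm38.p6, from 250 bases before to 50 bases after each annotated start. Of the 34 genes 29 had a window, and 7 of those, 24.1%, held it. It was present in 10.2% of the 14452 genes tested on the arrays that had a window and in 8.09% of all 27025 genes with one. Of factors outside the 34, 33 for the small subunit and small nucleolar ribonucleoproteins had a window, and 24.2% held the motif. It was present in 15.8% of 38 other large-subunit factors, 11.1% of 9 other polymerase I genes and 10.3% of 58 cytosolic ribosomal protein genes. Whether these shares differ was not tested. The median GC content of the windows was 58.0% in the 29 genes and 58.7% in the genes tested. Whether the motif bears on the change of these genes with time was not tested. The 7 matches are printed here. Each is 30 bases, 5′ to 3′ along the gene, with the motif in capitals.
Nop2 (chr6:125131811-125131840, plus strand): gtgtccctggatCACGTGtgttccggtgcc
Utp20 (chr10:88826765-88826794, minus strand): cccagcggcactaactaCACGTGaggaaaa
Pes1 (chr11:3963965-3963994, plus strand): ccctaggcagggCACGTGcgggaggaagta
Pno1 (chr11:17211540-17211569, minus strand): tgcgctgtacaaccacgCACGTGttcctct
Mybbp1a (chr11:72441347-72441376, plus strand): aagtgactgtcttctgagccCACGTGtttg
Tsr1 (chr11:74898092-74898121, plus strand): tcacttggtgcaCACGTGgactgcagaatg
Wdr43 (chr17:71616220-71616249, plus strand): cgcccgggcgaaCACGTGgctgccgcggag
In Nop2 the motif begins 60 bases before the annotated start used for the window. In the other 6 genes it lies within the first 50 bases from that start. It begins at position 38 in Utp20, 3 in Pes1, 38 in Pno1, 41 in Mybbp1a, 25 in Tsr1 and 18 in Wdr43. The start used for Wdr43 lies inside the gene, whose first annotated base is chr17:71616178. The median log2 difference of 72 h minus 12 h D-F was -0.66 in the 7 genes with a match and -0.74 in the 22 without, and that of 24 h A-C minus 8 h was -0.47 and -0.48.

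Ribosome biogenesis genes fell within both array sets. At 72 h against 12 h D-F, the long comparison, 33 of the 34 were called lower and 0 higher (limma, p adjusted by Benjamini-Hochberg across the genes tested and under 0.05), while 34.5% of all genes were called lower and 26.2% higher. Their median log2 difference was -0.70, which is 61.4% of the earlier intensity, beside -0.09 over all genes. Changes ran between -1.27 and -0.22, and 6 genes fell by at least 1. All 3 arrays at 72 h lay below all 3 at 12 h D-F in 33 of 34, against 38.3% of all genes. Within set 1 they fell too. At 24 h A-C against 8 h, the early comparison, 32 of 34 were called lower and 0 higher, with 15.8% of all genes called lower and 23.5% higher, and the median was -0.46, or 72.6% of the earlier intensity, beside -0.02 over all genes. All 34 had the 3 later arrays below the 3 earlier ones, against 24.9% of all genes.

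**Figure D1:**
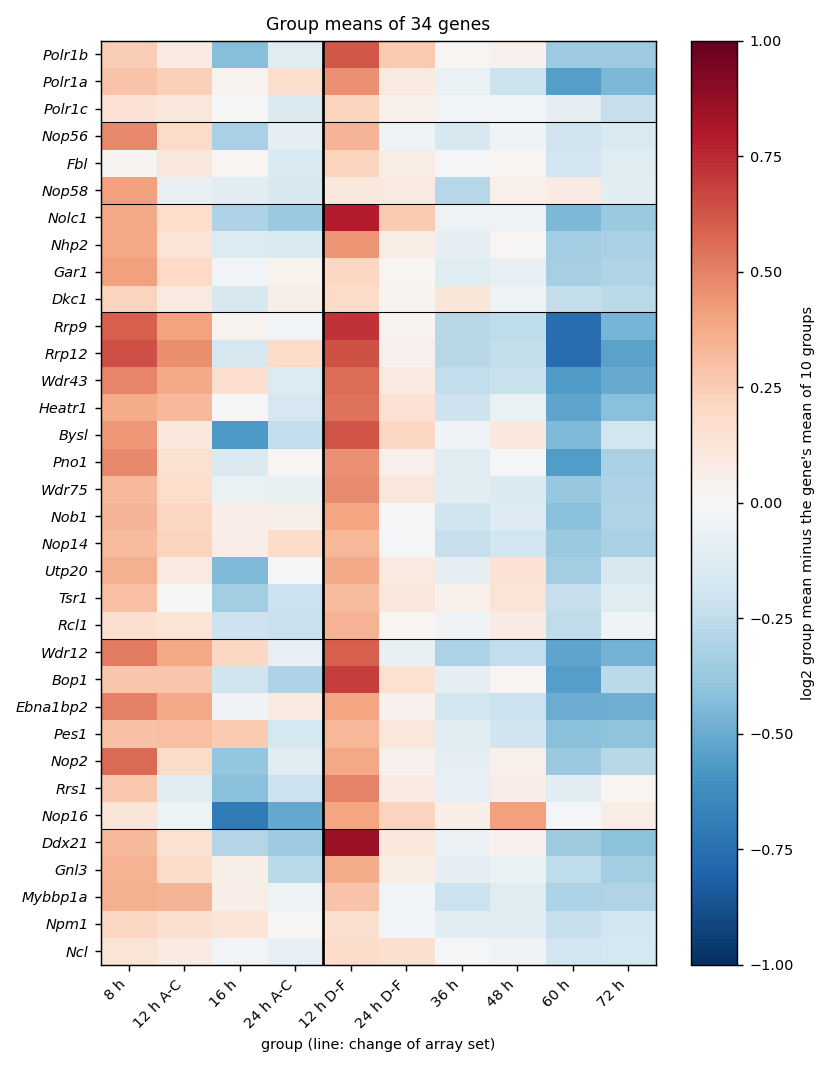
Group mean of each of the 34 genes minus that gene's mean of 10 group means (log2, colour scale), with genes in rows by role and groups in columns, array set 1 left of the line and array set 2 right of it. Red at 8 h and 12 h D-F gives way to blue, and the lowest mean of array set 2 is at 60 h in 28 rows.

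Within array set 1 the highest group mean was at 8 h in 31 genes and at 12 h A-C in 3, and the lowest was at 16 h in 15 genes and at 24 h A-C in 19. Within set 2 the highest was at 12 h D-F in 33 genes and at 48 h in 1, Nop16, and the lowest was at 60 h in 28, at 72 h in 5 and at 36 h in 1.

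**Figure D2:**
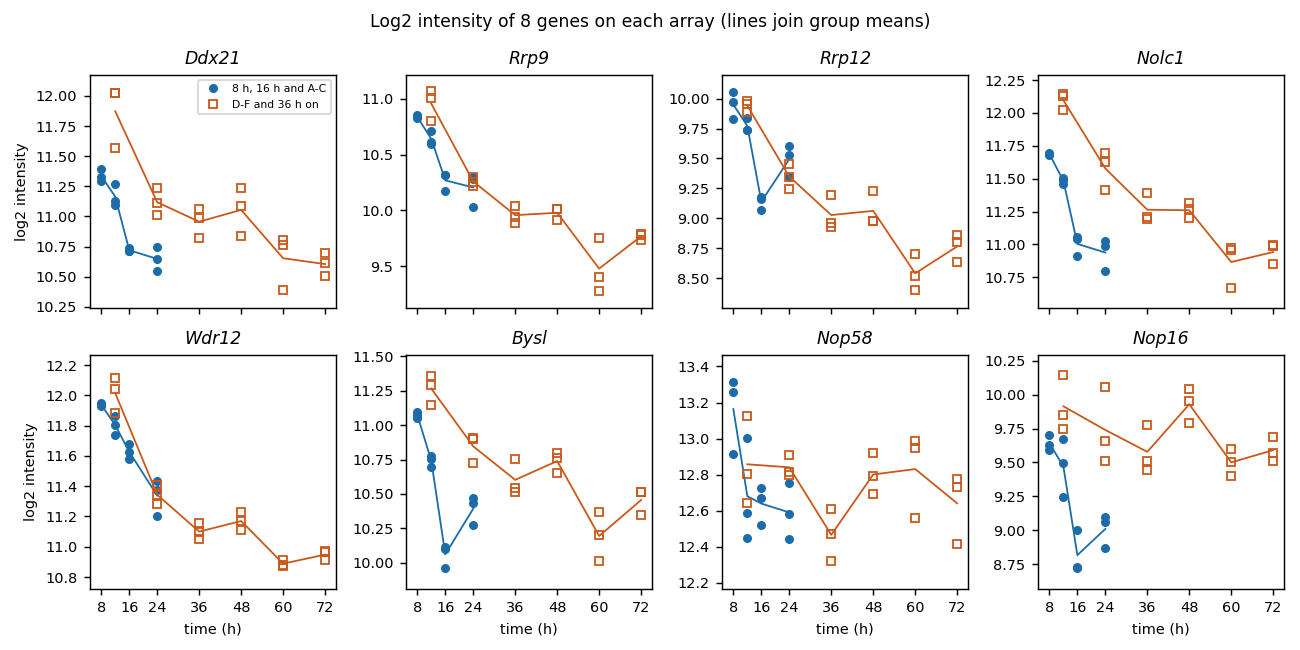
Log2 intensity (vertical axes, a scale of its own for each gene) of 8 of the 34 genes on each array against time in hours, with filled circles for array set 1 and open squares for array set 2, and lines through group means. Ddx21, Rrp9, Rrp12, Nolc1, Wdr12 and Bysl end lower than they begin in both sets, some with rises between. The arrays of Nop58 and Nop16 spread widely within some groups.

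RNA polymerase I was represented by its catalytic subunit Polr1a, the other large subunit Polr1b and Polr1c, which RNA polymerase III shares. Polr1b had 8.50, 8.48 and 8.36 at 72 h and 9.48, 9.40 and 9.41 at 12 h D-F. The groups are far apart, with a log2 difference of -0.99 ± 0.10 (SE, adjusted p = 4.89e-09). Polr1a had 9.57, 9.60 and 9.55 at 72 h and 10.49, 10.46 and 10.49 at 12 h D-F, a difference of -0.91 ± 0.06 (adjusted p = 6.04e-13). In set 1 its group means were 10.19 ± 0.06 at 24 h A-C and 10.31 ± 0.04 at 8 h, and the difference of -0.11 ± 0.06 did not pass (adjusted p = 0.106). Polr1b fell early too, by 0.36 on the log2 scale (adjusted p = 0.00522). Polr1c fell in both comparisons, with -0.45 ± 0.06 at 72 h against 12 h D-F and -0.28 ± 0.06 at 24 h A-C against 8 h (adjusted p = 2.21e-07 and 0.000327). Other probe sets of Polr1a did not all follow. Of 4 further ones, 2 were called lower at 72 h against 12 h D-F, with -0.38 and -0.35, and 2 did not pass, with -0.22 and -0.10.

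The proteins of the box C/D ribonucleoproteins, the methyltransferase fibrillarin (Fbl) and its scaffold proteins Nop56 and Nop58, had a median difference of -0.34 at 72 h against 12 h D-F. Nop56 fell early, with 12.70, 12.45 and 12.71 at 24 h A-C and 13.16, 13.23 and 13.19 at 8 h, a difference of -0.58 ± 0.06 (adjusted p = 2.06e-08). At 72 h against 12 h D-F it differed by -0.49 ± 0.06 (adjusted p = 6.59e-08). Fbl moved by -0.18 ± 0.06 and -0.34 ± 0.06 in the early and the long comparison (adjusted p = 0.0122 and 1.34e-05), and the early call was lost without the 24 h array B (adjusted p = 0.0992). Nop58 is the gene that did not pass at 72 h against 12 h D-F. Its arrays spread widely, with 12.73, 12.78 and 12.42 at 72 h and 12.81, 13.12 and 12.64 at 12 h D-F, so the groups overlap (difference -0.22 ± 0.14, adjusted p = 0.200). Against 8 h, where it had 12.92, 13.26 and 13.31, it was lower both at 24 h A-C (-0.57 ± 0.14, adjusted p = 0.00258) and at 72 h (-0.52 ± 0.14, adjusted p = 0.00287).

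Among box H/ACA genes, Nolc1, a chaperone that binds both classes of ribonucleoprotein, moved most. It had 10.85, 10.99 and 10.99 at 72 h and 12.13, 12.14 and 12.02 at 12 h D-F, a difference of -1.16 ± 0.08 (adjusted p = 9.36e-12), which is 44.9% of the earlier intensity. At 24 h A-C it had 11.03, 10.80 and 10.99 and at 8 h 11.69, 11.68 and 11.69, and its difference of -0.75 ± 0.08 was the lowest of the 34 in that comparison (adjusted p = 9.08e-08). Nhp2, a core protein of the complex, fell by 0.77 and 0.53 on the log2 scale in the long and the early comparison. Gar1, another core protein, had -0.51 ± 0.06 and -0.38 ± 0.06. Dkc1, the pseudouridine synthase, had -0.46 ± 0.06 and -0.17 ± 0.06 (adjusted p = 9.03e-08 and 0.0192). Its early call did not hold without the 8 h array C (adjusted p = 0.0676) or without the 24 h array A (0.0890), and of its other probe sets one was called lower in both comparisons, at -0.60 and -0.34, and one passed in neither, at -0.44 and -0.46.

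**Figure D3:**
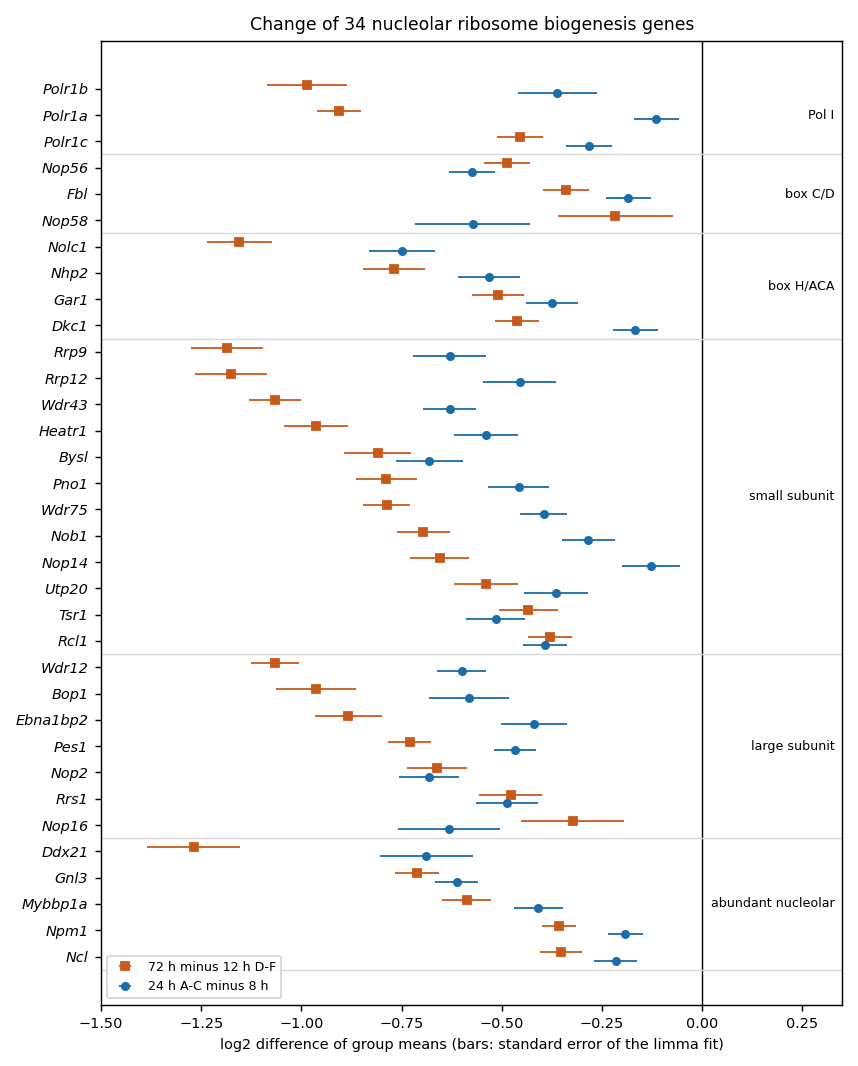
Log2 difference of group means for each of the 34 genes, grouped by role, with squares for 72 h minus 12 h D-F, circles for 24 h A-C minus 8 h and bars for the standard error of the limma fit. Every point lies left of 0, and the squares reach -1.27 for Ddx21.

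Small-subunit factors made up 12 of the 34 genes, and all 12 were called lower at 72 h against 12 h D-F (median -0.79), 11 of them also at 24 h A-C against 8 h (median -0.46). Of all genes, 34.5% and 15.8% were called lower there. Rrp9, which binds the U3 small nucleolar RNA, had 9.73, 9.78 and 9.79 at 72 h and 11.00, 11.07 and 10.80 at 12 h D-F, a difference of -1.19 ± 0.09 (adjusted p = 3.48e-11). Rrp12, needed in yeast for export of both precursor subunits, had 8.64, 8.86 and 8.80 at 72 h and 9.95, 9.98 and 9.89 at 12 h D-F, which differ by -1.18 ± 0.09 (adjusted p = 4.32e-11). Every 72 h array of both genes lay far below every 12 h D-F array. Of the assembly proteins that act on the nascent precursor, Wdr43 and Heatr1 fell by 1.07 and 0.96 on the log2 scale and Wdr75 by 0.79. Utp20, a large scaffold of the same processome, had -0.54 ± 0.08. The processome protein Nop14 fell by 0.66 at 72 h against 12 h D-F (adjusted p = 2.97e-08). At 24 h A-C against 8 h it did not pass (-0.13 ± 0.07, adjusted p = 0.175).

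The late-acting small-subunit factors fell too. Bysl, a component of precursor subunits on their way to export, had 10.43, 10.28 and 10.47 at 24 h A-C and 11.10, 11.05 and 11.08 at 8 h, a difference of -0.68 ± 0.08 (adjusted p = 5.38e-07). At 72 h against 12 h D-F the difference was -0.81 ± 0.08 (adjusted p = 7.52e-09). Nob1, the nuclease that trims the end of the small-subunit RNA, and its partner Pno1 fell by 0.70 and 0.79 on the log2 scale at 72 h against 12 h D-F, and by 0.28 and 0.46 at 24 h A-C against 8 h. Tsr1, which resembles a GTPase and binds late precursors, had -0.43 ± 0.07 and -0.52 ± 0.07 in those comparisons. Rcl1, a cyclase-like protein of the processome, had the change nearest 0 among the 12 at 72 h, -0.38 ± 0.06 (adjusted p = 1.82e-06).

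All 7 large-subunit factors were called lower in each main comparison, with medians of -0.73 at 72 h against 12 h D-F and -0.58 at 24 h A-C against 8 h. The shares of all genes called lower were 34.5% and 15.8%. Pes1, Bop1 and Wdr12 form one complex, known as PeBoW, needed to mature the large-subunit RNA. Wdr12 had 10.91, 10.96 and 10.97 at 72 h and 12.04, 12.12 and 11.88 at 12 h D-F, so that the 72 h arrays lie together far below (-1.07 ± 0.06, adjusted p = 1.63e-13). Bop1 had 10.18, 10.37 and 10.49 at 72 h and 11.30, 11.42 and 11.21 at 12 h D-F (-0.96 ± 0.10, adjusted p = 8.34e-09). Pes1 fell by 0.73 on the log2 scale (adjusted p = 1.44e-11), but its other, dimmer probe set had -0.06 and did not pass. Ebna1bp2, an assembly factor, fell by 0.88, and Nop2, an RNA methyltransferase, by 0.66. Rrs1, which in yeast helps to place the smallest ribosomal RNA in the precursor, had -0.48 ± 0.08. The result for Nop16, another assembly factor, varied with the arrays used. It had 9.51, 9.57 and 9.69 at 72 h and 9.85, 10.14 and 9.75 at 12 h D-F, groups that are next to each other (-0.32 ± 0.13, adjusted p = 0.0328). That call did not hold without the 12 h array E (adjusted p = 0.195), the 72 h array A (0.102) or the 72 h array B (0.0721). Its early difference was larger, with 9.06, 8.87 and 9.10 at 24 h A-C and 9.59, 9.63 and 9.70 at 8 h (-0.63 ± 0.13, adjusted p = 0.000318). Its other, dimmer probe set was tested in a separate fit of all probe sets. That probe set had -0.32 in the long comparison (adjusted p = 0.00694) and -0.01 in the early one, which did not pass (adjusted p = 0.972).

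The remaining 5 genes encode abundant nucleolar proteins with wider roles. Ddx21, an RNA helicase that acts in polymerase I transcription and processing, had the lowest difference of the 34 at 72 h against 12 h D-F. It had 10.69, 10.61 and 10.51 at 72 h and 12.03, 11.57 and 12.02 at 12 h D-F, where array E stands below the other 2, and the difference was -1.27 ± 0.12 (adjusted p = 9.01e-10), or 41.5% of the earlier intensity. At 24 h A-C it had 10.55, 10.75 and 10.65 and at 8 h 11.33, 11.29 and 11.39, a difference of -0.69 ± 0.12. Gnl3, the GTP-binding protein nucleostemin known from stem cells, had 12.53, 12.44 and 12.55 at 24 h A-C and 13.12, 13.06 and 13.18 at 8 h (-0.61 ± 0.05, adjusted p = 3.77e-09). Its difference at 72 h against 12 h D-F was -0.71 ± 0.05. Mybbp1a, a nucleolar protein that binds transcription factors, had -0.59 ± 0.06 and -0.41 ± 0.06 in the long and the early comparison. Nucleolin (Ncl) and nucleophosmin (Npm1), among the most abundant proteins of the nucleolus, changed by small amounts with little spread in their brightest probe sets. Npm1 had 14.28, 14.19 and 14.19 at 72 h and 14.62, 14.56 and 14.54 at 12 h D-F (-0.36 ± 0.04, adjusted p = 9.88e-08), and Ncl had -0.35 ± 0.05 (adjusted p = 3.29e-06). The other 4 probe sets of Ncl, which are dimmer, were all called lower in that comparison and by more, with -1.05, -0.88, -0.74 and -0.57. The other probe set of Npm1, nearly as bright as the chosen one, fell by less there, at -0.15 (adjusted p = 0.0346). It did not pass at 24 h A-C against 8 h (-0.14, adjusted p = 0.0743) or at 72 h against 8 h (-0.07, adjusted p = 0.319).

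Across all other probe sets of these genes, 33 in number, 27 were called lower, 0 higher and 6 did not pass at 72 h against 12 h D-F. At 24 h A-C against 8 h the counts were 20, 0 and 13. These calls come from a separate fit of all 34945 probe sets, and the shares of those called are not given here. Compared across the sets, 72 h against 8 h gave 33 genes lower and 0 higher with a median of -0.64, while 39.9% of all genes were called lower and 26.7% higher. Nop16 was the exception in that comparison, with -0.05 ± 0.13 (adjusted p = 0.735). These comparisons share their 72 h or 8 h arrays with those above.

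The course was not smooth. From one time to the next, 11 genes were called lower and 0 higher at 12 h A-C against 8 h (6.67% of all genes lower and 12.9% higher), and 25 lower and 0 higher at 16 h against 12 h A-C (9.5% of all genes lower and 12.4% higher, median -0.29). At 24 h A-C against 16 h, 6 genes were lower and 8 higher, shares near the 16.9% and 17.4% of all genes. The median was -0.01, so the 34 genes did not move as a group at this step. Those called higher were Utp20 (0.43 ± 0.08), Rrp12 (0.36 ± 0.09), Bysl (0.33 ± 0.08), Polr1b, Nop2, Nop56, Dkc1 and Rrs1. Those called lower were Pes1 (-0.44 ± 0.05), Gnl3 (-0.33 ± 0.05), Wdr43, Wdr12, Fbl and Npm1. Bysl had 10.76, 10.69 and 10.77 at 12 h A-C, 9.96, 10.12 and 10.10 at 16 h and 10.43, 10.28 and 10.47 at 24 h A-C, and no overlap between these groups. Pes1 had 11.68, 11.73 and 11.80 at 12 h A-C, 11.63, 11.73 and 11.72 at 16 h and 11.28, 11.15 and 11.33 at 24 h A-C. The 11 calls at 12 h A-C against 8 h became 7 without the 8 h array C and 6 without the 12 h array C. Neighbouring steps share the arrays of the time between them.

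In array set 2, 30 genes were lower and 0 higher at 24 h D-F against 12 h D-F (14.8% of all genes lower and 16% higher, median -0.36). At 36 h against 24 h D-F, 11 were lower and 0 higher (4.79% of all genes lower and 8.84% higher). At 48 h against 36 h few were called, with 2 lower (Polr1a and Dkc1) and 1 higher (Utp20), and 14.5% and 7.59% of all genes. A further fall came between 48 h and 60 h, with 28 lower and 0 higher (13.8% of all genes lower and 9.37% higher, median -0.31), led by Bop1 (-0.57 ± 0.10), Bysl (-0.54 ± 0.08), Pno1 (-0.54 ± 0.08) and Rrp12 (-0.52 ± 0.09). A fit of only those 6 arrays called 6 of the 34. At 72 h against 60 h, 0 were lower and 3 higher (Rrp9, Bysl and Rcl1), with 2.67% and 8.54% of all genes. The smaller counts moved when single arrays were left out. The 11 at 36 h became 3 without the 24 h array D, 7 without the 24 h array F, 5 without the 36 h array A and 4 without the 36 h array B. The 3 at 48 h became 1 without the 36 h array A and 0 without the 36 h array B or the 48 h array A. The 3 at 72 h became 0 without the 60 h array A, 1 without the 60 h array B, the 72 h array B or the 72 h array C, and 8 without the 60 h array C.

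Arrays of the same time in different sets did not give the same level. At 12 h, 22 of the 34 genes were higher in D-F than in A-C and 0 lower (17.2% of all genes higher and 21.7% lower, median 0.20). Ddx21 had 12.03, 11.57 and 12.02 in D-F and 11.27, 11.13 and 11.10 in A-C, a difference of 0.71 ± 0.12 (adjusted p = 2.56e-05). Nolc1 and Rrs1 followed with 0.61 ± 0.08 and 0.61 ± 0.08, while Npm1 (0.01 ± 0.04), Gar1 (0.01 ± 0.06) and Ebna1bp2 (0.02 ± 0.08) did not pass. At 24 h, 18 were higher and 1, Nop14, was lower, with 13.3% and 20.4% of all genes (median 0.21). Nop16 had 9.66, 9.51 and 10.05 in D-F and 9.06, 8.87 and 9.10 in A-C (0.73 ± 0.13, adjusted p = 8.18e-05). The Nop14 difference of -0.20 ± 0.07 lost its call without any of 4 single arrays, the 24 h arrays A, C, E or F. Culture and array handling cannot be told apart between the sets, so the fall was read within each set. The fall between 12 h and 24 h itself was tested for a difference between the sets. It differed in 5 of 34 genes, against 19.1% of all genes: Polr1a, Nop14, Nob1 and Rrs1 fell more in D-F and Pes1 more in A-C. The other probe set of Pes1 went against the chosen one at 24 h, with -0.70 for D-F minus A-C where the chosen one had 0.29 ± 0.05. The other probe set of Nop16 was also called lower in D-F at 24 h, at -0.36 (adjusted p = 0.00620). These were the 2 called lower there among the 33 other probe sets of the 34 genes, with 11 called higher. The shares of all probe sets called there are not given here.

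Factors of the same pathway outside the 34 fell as well. Of all genes, 34.5% were called lower at 72 h against 12 h D-F and 15.8% at 24 h A-C against 8 h. Of 41 other small-subunit and small nucleolar ribonucleoprotein factors, 40 were called lower at 72 h against 12 h D-F and 33 at 24 h A-C against 8 h, with 0 higher in either and medians of -0.72 and -0.38. Nat10, an RNA acetyltransferase, had -1.10 ± 0.08 and Wdr36, a processome protein, -1.08 ± 0.06 in the long comparison. Of 42 other large-subunit factors, 40 and 37 were lower and 0 higher, with medians of -0.75 and -0.40. Wdr74 (-1.38 ± 0.09) and Nle1 (-1.33 ± 0.09), which act on precursors of the large subunit, had the lowest differences of that list in the long comparison, and Mdn1, the giant ATPase that strips factors from them, had -1.24 ± 0.11. Of 9 other genes of the polymerase I machinery, 7 and 5 were lower and 0 higher, with medians of -0.40 and -0.15, and 2 and 4 did not pass. Rrn3, the factor that recruits the polymerase, had -0.90 ± 0.07 at 72 h against 12 h D-F and -0.43 ± 0.07 at 24 h A-C against 8 h. Taf1d, a subunit of the promoter selectivity factor, had -1.08 ± 0.08 and -0.93 ± 0.08.

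Cytosolic ribosomal protein genes, whose products are the building blocks that these factors assemble, moved little as a list. Of 79 listed, 44 were measured. At 72 h against 12 h D-F 9 were called lower and 0 higher, beside 34.5% and 26.2% of all genes. At 24 h A-C against 8 h 3 were lower and 0 higher, beside 15.8% and 23.5%. The list's median differences were -0.03 and -0.00. Rpl12 (-1.49 ± 0.09), Rps25 (-0.74 ± 0.08) and Rpl14 (-0.61 ± 0.08), given here for 72 h against 12 h D-F, fell in both comparisons. These 3 genes averaged only 11.18, 11.29 and 10.46 at 8 h, and others as dim did not pass at 24 h A-C against 8 h. The median level of the ribosomal protein probe sets over all arrays was 14.5, and the highest value of any probe set in the table was 15.2. How far such a level limits a measurable change was not tested.

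**Figure D4:**
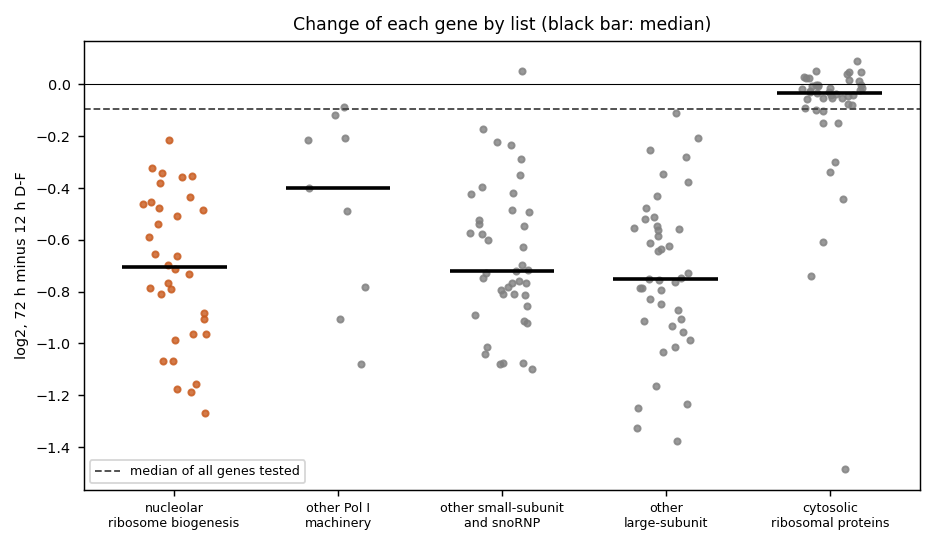
Log2 difference of 72 h minus 12 h D-F for each gene (points) by list, with a black bar at the median of each list and a dashed line at the median of all genes tested (-0.09). The 34 nucleolar genes and the other small- and large-subunit factors centre between -0.70 and -0.75, while the ribosomal proteins centre at -0.03 with Rpl12 far below.

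Myc and Mycn, the Myc factors of embryonic stem cells, fell within set 1 and moved apart within set 2. Myc averaged 9.20 ± 0.05 at 8 h (SD, n = 3 in each group), 8.51 ± 0.14 at 12 h A-C, 7.42 ± 0.24 at 16 h and 7.92 ± 0.24 at 24 h A-C, and fell by 1.28 on the log2 scale at 24 h A-C against 8 h (adjusted p = 3.26e-06). Mycn fell by 0.86 (adjusted p = 1.24e-06) and averaged 10.88 ± 0.05 at 8 h, 10.29 ± 0.21 at 12 h A-C, 9.35 ± 0.17 at 16 h and 10.01 ± 0.15 at 24 h A-C. Both were lowest at 16 h in that set. In set 2 Myc averaged 10.09 ± 0.30 at 12 h D-F, 8.73 ± 0.09 at 24 h D-F, 9.11 ± 0.15 at 36 h, 9.68 ± 0.06 at 48 h, 9.16 ± 0.53 at 60 h and 9.45 ± 0.11 at 72 h. Its difference of -0.64 ± 0.18 at 72 h against 12 h D-F passed (adjusted p = 0.00335). Mycn averaged 10.40 ± 0.11 at 12 h D-F, 9.75 ± 0.04 at 24 h D-F, 10.05 ± 0.04 at 36 h, 10.50 ± 0.22 at 48 h, 11.29 ± 0.14 at 60 h and 10.99 ± 0.16 at 72 h. It went the other way, with a rise of 0.59 ± 0.11 (adjusted p = 6.50e-05). Against 8 h neither passed at 72 h, at 0.25 ± 0.18 for Myc and 0.11 ± 0.11 for Mycn. At 12 h Myc was higher in D-F than in A-C by 1.59 ± 0.18 (adjusted p = 1.86e-07). The antagonist Mxd4 rose by 1.01 ± 0.13 and 0.50 ± 0.13 in the long and the early comparison, and Mycl by 0.90 ± 0.09 and 0.65 ± 0.09. The 11 genes of the Myc family list went both ways. In the long comparison 5 were called lower and 4 higher, beside 34.5% and 26.2% of all genes. In the early one 4 were lower and 2 higher, beside 15.8% and 23.5%, and another antagonist was among those lower (-0.19).

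Markers of other cells moved in the same arrays. Of all genes, 26.2% were called higher and 34.5% lower in the long comparison, and 23.5% and 15.8% in the early one. At 48 h against 36 h the shares were 7.59% higher and 14.5% lower, and at 60 h against 48 h 9.37% and 13.8%. At 72 h against 12 h D-F, 27 of 29 fibroblast markers were called higher and 0 lower, and their mean log2 level per array lay between 10.39 and 11.18 at 72 h and between 8.48 and 9.16 at 12 h D-F. At 24 h A-C against 8 h, 8 were higher and 0 lower, with levels of 8.68 to 8.80 at 24 h A-C and 8.22 to 8.44 at 8 h. Of 16 stem cell markers 13 were lower in each of these comparisons, with 1 and 0 higher, and their levels were 10.62 to 10.89 at 72 h and 11.90 to 12.01 at 12 h D-F, and 11.45 to 11.62 at 24 h A-C and 12.09 to 12.16 at 8 h. The step with the most fibroblast markers higher was 48 h against 36 h, with 26 of 29 higher (median 1.41), and there 3 of the 34 ribosome biogenesis genes were called. The step from 48 h to 60 h had 28 of them lower, with 7 fibroblast markers lower and 3 higher (median -0.46), 11 of 16 stem cell markers lower and 0 higher (median -0.67) and 8 of 14 endoderm markers higher and 0 lower (median 0.54). Endoderm markers were called higher in 10 of 14 and lower in 2 at 72 h against 12 h D-F, with mean levels of 9.28 to 9.68 at 72 h and 8.06 to 8.18 at 12 h D-F. At 24 h A-C against 8 h 5 were higher and 2 lower, with 7.82 to 7.86 at 24 h A-C and 7.56 to 7.62 at 8 h. Of 9 neural markers 6 were higher and 1 lower in the long comparison, with levels of 8.60 to 8.67 at 72 h and 7.79 to 7.84 at 12 h D-F, and 3 were higher and 1 lower in the early one, with 7.83 to 7.93 at 24 h A-C and 7.40 to 7.59 at 8 h. In the early comparison the shares of fibroblast, endoderm and neural markers called higher were not far above that of all genes. The part of these other cells in the level of the 34 genes was not tested.

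**Figure D5:**
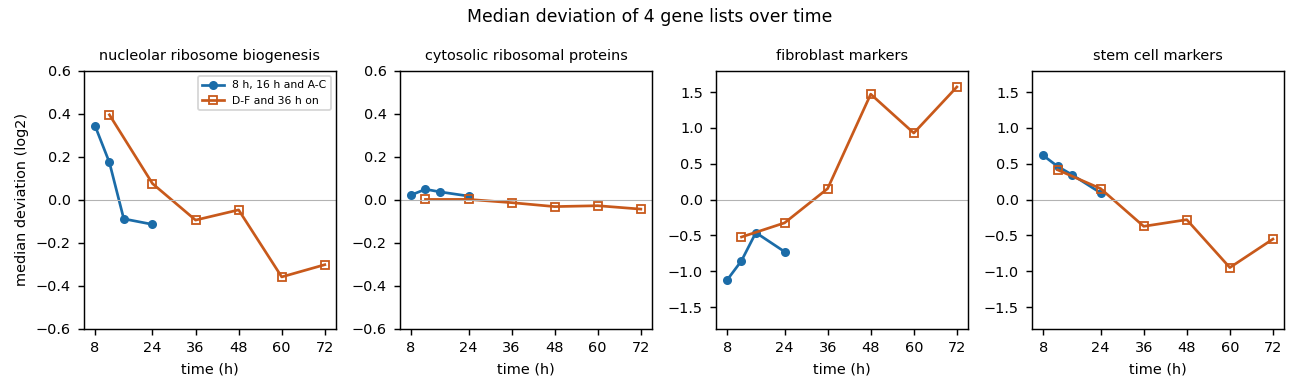
Median deviation of 4 gene lists at each group against time in hours, where a deviation is a gene's group mean minus its mean of 10 groups (log2), with circles for array set 1 and squares for array set 2. The vertical scale is wider in the right-hand pair of panels. The ribosome biogenesis genes step down at 16 h in set 1 and at 24 h and 60 h in set 2, ribosomal proteins stay near 0, and fibroblast markers climb most at 48 h.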

How the data were processed

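RNA of 30 samples was measured on 30 Affymetrix arrays. The authors deposited 1 table of log2 intensities, normalised between arrays before deposit. The method is not given in the sources used here, and the submitters' processing notes name limma 3.8.3. Array medians lay between 6.34 and 6.39. Of 45101 probe sets, 64 controls, 9160 without a symbol and 932 with several were left out, which left 34945, and the probe set with the highest mean stood for each of 18193 genes. Symbols came from GEO's platform annotation.

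One limma 3.58.1 fit in R 4.3.3 covered 10 group means over all arrays, with empirical Bayes variance, no block and no filter. A gene was called at a two-sided p under 0.05 after Benjamini-Hochberg adjustment across the genes tested. Errors are standard errors of the fit, or SDs of 3 arrays after a group mean. The fit was tested on simulated data.

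The 34 genes, the other gene lists and the array sets were chosen with earlier results of these data known. All 34 may be named, with Myc and Mycn. Of each other list, those named are among the 4 called genes with the largest change. Alternatives covered normalization, dim genes (below the 30th percentile), probe set choice, the samples in the fit, blocks and each array left out in turn. The labels describe the replating of cells before lysis in 2 ways, with RNA from adhered cells or from cells of the drawn-off medium. The number of arrays limits precision.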

Additional observations from a re-analysis of the deposited data

Results flagged for a closer look

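The change between 12 h and 24 h differed between arrays D-F and A-C in 5 of the 34 genes by a test of the difference itself (limma interaction), while 19.1% of all genes were called. The share among the 34 was no larger than that of all genes. Polr1a changed by -0.37 in D-F and -0.06 in A-C, a difference of -0.31 (adjusted p = 0.00582). Nop14 changed by -0.35 in D-F and -0.04 in A-C, a difference of -0.31 (adjusted p = 0.0360). Nob1 changed by -0.42 and -0.15, a difference of -0.27 (adjusted p = 0.0486). Rrs1 changed by -0.42 and -0.10, a difference of -0.32 (adjusted p = 0.0484). Pes1 went the other way, with -0.22 in D-F and -0.48 in A-C, a difference of 0.26 (adjusted p = 0.0142). Leaving out single arrays of 12 h or 24 h ended the call of Nop14, Nob1 or Rrs1 in turn, and the number of genes called lay between 2 and 7. The calls of Polr1a and Pes1 held without each array. When a gene was read as the mean of its probe sets, Polr1a had -0.03 (adjusted p = 0.887) and Pes1 turned to -0.30 (adjusted p = 0.0410).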

How the results depend on the processing

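In the main comparisons no count of members called lower at 24 h A-C or 72 h moved by over 1.5 times under any alternative run, and no single array left out moved one. Members' medians at 24 h A-C against 8 h and 72 h against 12 h D-F were -0.37 and -0.61 with the letters pooled into 8 time groups, a fit in which Polr1b, Fbl, Nolc1, Nop16, Rrs1 and Ncl lost the first call and Nop16 and Rrs1 the second. Centring arrays on the median of the genes tested, chosen after seeing the data, shifted the median of all genes by -0.19, -0.18 and -0.21 at 24 h A-C against 8 h, 72 h against 12 h D-F and 72 h against 8 h, and gave medians of -0.65, -0.88 and -0.85 there, -0.25 at 12 h A-C against 8 h, -0.38 at 16 h and -0.45 at 24 h D-F. The members' medians relative to all genes, -0.44, -0.61 and -0.51, cannot change under it, since it subtracts 1 constant per array. That centring called 10937 genes at 24 h A-C against 8 h in place of 7154, and 20 members at 12 h A-C against 8 h, 17 at 36 h, 1 at 72 h against 60 h, 0 lower between D-F and A-C at 24 h and 3 in the test of the difference between D-F and A-C. With array set as a block, the median at 72 h against 8 h was -0.83. Quantile normalising again gave 0 lower between D-F and A-C at 24 h, 0 at 72 h against 60 h and 2 in the test of the difference. The mean of all probe sets gave 2, 7 at 36 h against 24 h D-F and 2, and turned Pes1 between D-F and A-C at 24 h to -0.21 and its difference in change to -0.30. A fit of only the groups compared gave 0 lower between D-F and A-C at 24 h, 3 members at 36 h, 0 at 48 h, 6 at 60 h, 0 at 72 h against 60 h and 3 in the test of the difference. Leaving out single arrays gave 6 to 9 members at 12 h A-C against 8 h, 3 to 14 at 36 h, 0 to 3 at 48 h, 0 to 8 at 72 h against 60 h, 0 to 1 lower between D-F and A-C at 24 h and 2 to 7 in the test of the difference. The cause of these shifts was not tested.

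Deviations of same-lettered arrays of different groups correlated at a median of 0.01, with 15 of 87 over 0.1, and those of other pairs at a median of -0.00, with 41 of 318 over 0.1. Of 24 arrays A to C, 10 were closest to their own letter. Since most same-lettered correlations were not over 0.1 and the labels name nothing shared, the letters were not taken as pairs. The letter as a replicate block called 5 members at 72 h against 60 h in place of 3 and moved no other count by over 1.5 times.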
